A study of Mus musculus with 8 samples.

Results

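Primitive endoderm is the extraembryonic layer that separates from the epiblast in the blastocyst and goes on to line the yolk sac. Its fate is set by GATA factors, which act under FGF signalling and against the pluripotency network, followed by SOX factors and then by surface and secreted products. Cultures of mouse embryonic stem (ES) cells commonly hold a few cells that express these genes. The 10 genes described here were chosen by name as regulators or markers of that layer, with earlier results of these data known. Counts of them set beside shares of all genes are therefore descriptions and not tests. They are Gata4, Gata6, Sox17, Sox7, Hnf4a, Foxa2, Pdgfra, Dab2, Thbd and Fst. All 10 were on the array, with 24 of its 45101 probe sets, and all 10 were among the 14027 genes tested.

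RNA came from CJ7 cells, a mouse ES cell line, in 4 groups of 2 arrays. Sall4a-only cells carried a lentiviral short hairpin RNA (shRNA) against both isoforms of the zinc-finger factor Sall4, with an added Sall4a cDNA that resists it. Sall4b-only cells carried the same shRNA with a resistant Sall4b cDNA, depleted cells carried the shRNA alone, and control cells carried a lentivirus with no shRNA. All 4 groups were exposed to virus for 24 hours, with polybrene at 2.5 mcg/mL, put under puromycin at 2 mcg/mL in medium with LIF, and harvested 48 hours after infection. The control virus held no hairpin, so lower Sall4 and the presence of any shRNA cannot be told apart in a comparison with control. How the paired cultures of a group were kept apart is not stated, so a p-value here reflects only how far the 2 arrays of a group lay from each other, which may in part be technical. An exact two-sided permutation test of 2 arrays against 2 cannot give a p below 0.333.

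The check of the targeted gene was partial. On the brighter Sall4 probe set the log2 difference from control was -0.66 in Sall4a-only, -0.56 in Sall4b-only and -0.47 in depleted cells (SE 0.11). On the dimmer probe set it was -1.16, -0.997 and -1.25 in the same order (SE 0.20), and neither passed by limma in any of these comparisons. All 6 arrays with the shRNA were thus below control, and Sall4a-only cells differed from depleted cells by -0.20 on the brighter and 0.086 on the dimmer set. Sall4b-only cells differed from depleted cells by -0.096 and 0.25 on the same sets. These values do not show a rise of Sall4 RNA with either added cDNA, and which Sall4 transcripts the sets read was not settled. All 10 ES cell markers, among them Pou5f1, Nanog and Sox2, were called present on all 8 arrays. The Sall4a-only arrays lay further apart than others, with an SD over genes of the replicate difference of 0.62 log2, against 0.28 in Sall4b-only, 0.27 in depleted and 0.41 in control cells.

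In Sall4a-only cells all 10 primitive endoderm genes were lower than in control cells on both arrays, with log2 differences between -2.33 and -0.87 and a median of -1.08. Over all 14027 genes the median difference was 0.035, and 12.2% of genes were lower without overlap between the arrays. In Sall4b-only cells 4 of the 10 (Gata6, Sox7, Thbd and Fst) were lower than control without overlap, where 19.5% of all genes were, and Hnf4a was higher without overlap, where 32.2% were. In depleted cells 4 of the 10 (Gata4, Gata6, Foxa2 and Pdgfra) were lower than control without overlap, where 19.6% of all genes were, and none of the 10 was higher without overlap, where 21.5% of all genes were. The median difference over the 10 was -0.51 in Sall4b-only and -0.38 in depleted cells.

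None of the 10 passed an adjusted p of 0.05 by limma in any of the 6 comparisons among the groups, where Benjamini-Hochberg adjustment ran over all 14027 genes. Few genes of any kind passed: 0.00713% in Sall4a-only against control, 0.00713% in Sall4b-only against control and 0% in depleted against control. At an unadjusted p under 0.05, 9 of the 10 were lower in Sall4a-only than in control cells (all but Foxa2), against 3.37% of all genes. The count was 3 of 10 (Sox7, Thbd and Fst) in Sall4b-only cells, against 5.6% of all genes, and 0 of 10 in depleted cells, against 3.81%. These are bulk arrays, so fewer cells expressing a gene and less RNA per cell cannot be told apart.

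**Figure D1:**
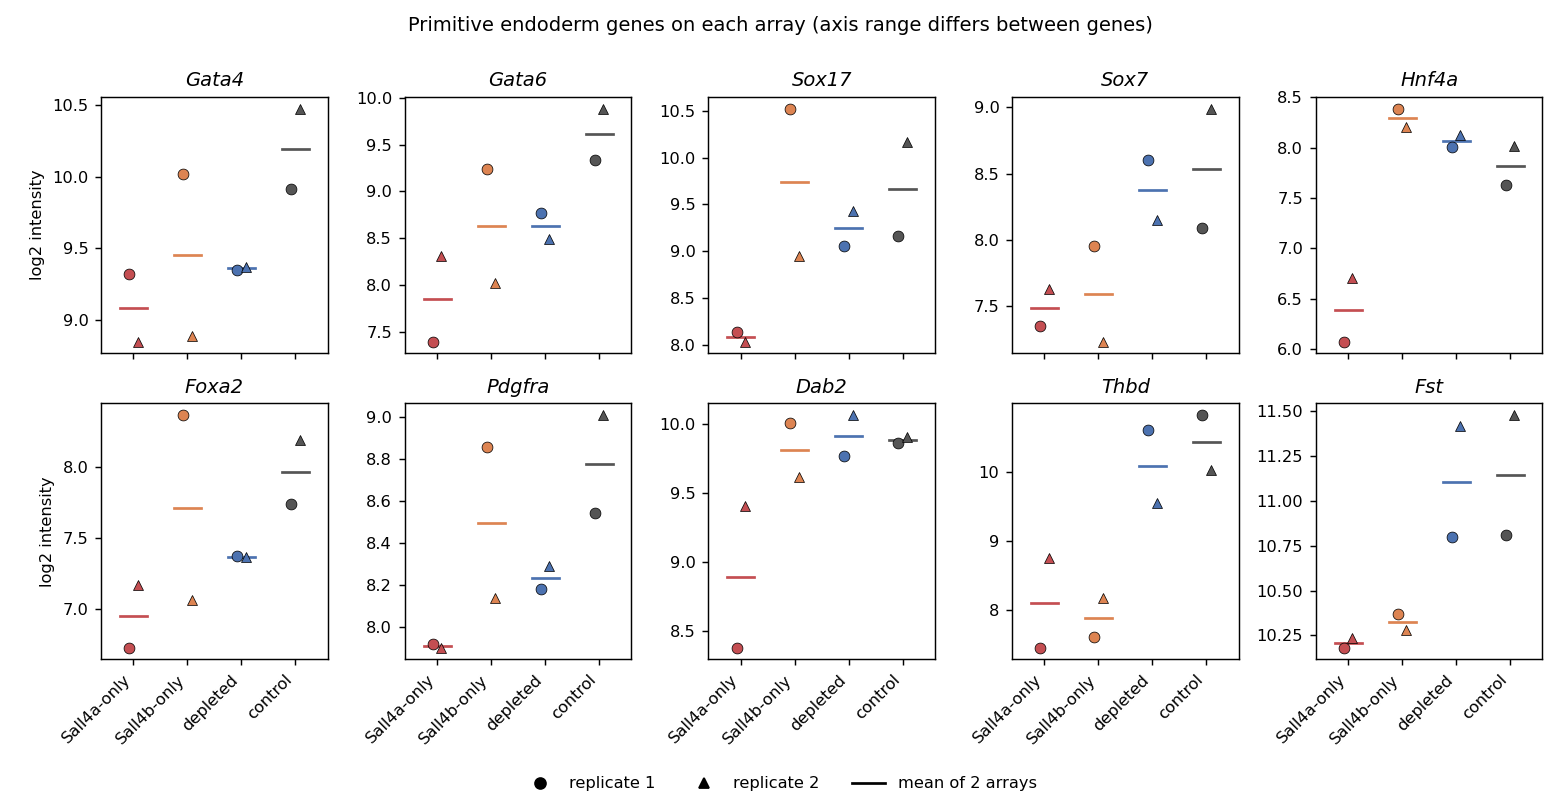
Log2 intensity (vertical axis) of the brightest probe set of each of the 10 genes in Sall4a-only, Sall4b-only, depleted and control cells (horizontal axis). Circles are replicate 1, triangles replicate 2 and bars the mean of 2 arrays. Both Sall4a-only arrays lie below both control arrays in all 10 panels, and the Sall4b-only arrays lie far apart for Gata4, Gata6, Sox17 and Foxa2.

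Gata6 and Gata4 are zinc-finger factors at the head of the primitive endoderm programme, and forced expression of either drives mouse ES cells to that fate. The Gata6 probe set had intensities of 168 and 317 in Sall4a-only, 602 and 261 in Sall4b-only, 437 and 360 in depleted, and 646 and 944 in control cells, given as replicates 1 and 2. All 6 arrays with the shRNA were below both control arrays, the highest of them being Sall4b-only replicate 1. The log2 difference from control was -1.76 in Sall4a-only (SE 0.47, limma adjusted p = 0.416), -0.98 in Sall4b-only (adjusted p = 0.395) and -0.98 in depleted cells (adjusted p = 0.703).

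Gata4 had 639 and 461 in Sall4a-only, 1036 and 473 in Sall4b-only, 653 and 662 in depleted, and 962 and 1421 in control cells. Sall4b-only replicate 1 was the one array with the shRNA that reached the control range. The difference from control was -1.11 log2 in Sall4a-only (SE 0.39, adjusted p = 0.516), -0.74 in Sall4b-only (adjusted p = 0.432) and -0.83 in depleted cells (adjusted p = 0.697). A dimmer kept probe set of each GATA gene was also lower in Sall4a-only than in control cells without overlap, by 0.82 log2 for Gata6 and 0.64 log2 for Gata4.

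Sox17 and Sox7 are related SOX factors that act after the GATA factors in this lineage. Sox17 had intensities of 282 and 262 in Sall4a-only, 1471 and 495 in Sall4b-only, 532 and 691 in depleted, and 572 and 1149 in control cells. The Sall4a-only arrays were the lowest of the 8, and Sall4b-only replicate 1 was the highest. The difference was -1.58 log2 between Sall4a-only and control cells (SE 0.55, adjusted p = 0.507) and -1.65 between Sall4a-only and Sall4b-only cells (adjusted p = 0.778). The name of this probe set carries the suffix that the array's maker gives to sets with probes matching other transcripts; the dimmer Sox17 set had the same order of extremes, with -1.02 log2 between Sall4a-only and control cells.

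Sox7 had 163 and 198 in Sall4a-only, 248 and 151 in Sall4b-only, 388 and 285 in depleted, and 272 and 508 in control cells. All 4 add-back arrays were below all 4 depleted and control arrays. The difference from control was -1.05 log2 in Sall4a-only (SE 0.37, adjusted p = 0.516), -0.94 in Sall4b-only (adjusted p = 0.319) and -0.16 in depleted cells (adjusted p = 0.975). Against depleted cells, Sall4b-only cells differed by 0.49 log2 for Sox17 (SE 0.55) and -0.78 for Sox7 (SE 0.37), neither past the threshold. The Sox17 difference rests on Sall4b-only replicate 1, since replicate 2 was below both depleted arrays, and it was -0.29 without replicate 1.

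Hnf4a encodes a nuclear receptor of visceral endoderm, the part of the layer around the embryo, and had the smallest p of the 10 in Sall4a-only cells. Its brightest probe set had intensities of 67.4 and 104 in Sall4a-only, 334 and 296 in Sall4b-only, 257 and 278 in depleted, and 198 and 258 in control cells. The first Sall4a-only array was called marginal and the other 7 arrays present. Sall4a-only cells were lower than each of the other groups without overlap, and Sall4b-only cells were higher than each of the other groups without overlap. The log2 difference of Sall4a-only cells was -1.43 from control (SE 0.24, adjusted p = 0.252), -1.67 from depleted (adjusted p = 0.210) and -1.91 from Sall4b-only cells (adjusted p = 0.215). Sall4b-only cells differed from control by 0.48 (adjusted p = 0.407) and depleted cells by 0.24 (adjusted p = 0.902).

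Of 4 Hnf4a probe sets only 2 were kept, so the values above rest on the 1 set called present on most arrays. The Hnf4a difference was smaller on the other kept probe set, which was called present on 3 of 8 arrays and absent on both Sall4a-only and both control arrays. That set had 34.1 and 28.8 in Sall4a-only, 47.9 and 49.3 in Sall4b-only, 37.5 and 41.8 in depleted, and 32.9 and 36.1 in control cells. There Sall4a-only cells were at least 1.55-fold lower than Sall4b-only cells and at least 1.26-fold lower than depleted cells, and they overlapped control cells. Here and below, "at least" refers to a dimmer group not called present and does not allow for the spread between arrays. With the mean of the kept probe sets the gene's difference from control was -0.78 in place of -1.43.

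The mouse Hnf4a gene has an upstream and a downstream start, and the files do not say which start the transcripts read here came from. Promoters are shown for Hnf4a because it separated Sall4a-only from Sall4b-only cells most widely, and for Dab2 as the other matched gene that was lower in Sall4a-only cells than in all other groups and whose first window holds a GATA match. RefSeq promoter windows (build GRCm38.p6, the 250 bases before a start) were found for 4 of the 10 genes: Hnf4a, Foxa2, Pdgfra and Dab2, with 8 windows. They were searched on both strands for the GATA form AGATAA, its variant AGATAG, the form TGATAA and its variant TGATAG, for the SOX form AACAAT and for the forkhead form TGTTTAC with its variant TGTTTGC. Capitals mark the matches, and all 3 windows are on the plus strand, written 5′ to 3′.
Hnf4a, upstream start, chr2:163506607-163506856: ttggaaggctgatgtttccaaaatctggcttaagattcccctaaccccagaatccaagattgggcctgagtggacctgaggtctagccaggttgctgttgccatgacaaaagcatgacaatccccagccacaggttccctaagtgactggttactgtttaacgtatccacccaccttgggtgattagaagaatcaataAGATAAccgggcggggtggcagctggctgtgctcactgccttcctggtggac
Hnf4a, downstream start, chr2:163546905-163547154: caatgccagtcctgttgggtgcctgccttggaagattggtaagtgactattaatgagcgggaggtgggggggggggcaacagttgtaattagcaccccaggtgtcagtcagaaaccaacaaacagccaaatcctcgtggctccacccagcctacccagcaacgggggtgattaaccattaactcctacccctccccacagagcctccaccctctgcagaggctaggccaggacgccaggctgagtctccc
Dab2, upstream start, chr15:6299539-6299788: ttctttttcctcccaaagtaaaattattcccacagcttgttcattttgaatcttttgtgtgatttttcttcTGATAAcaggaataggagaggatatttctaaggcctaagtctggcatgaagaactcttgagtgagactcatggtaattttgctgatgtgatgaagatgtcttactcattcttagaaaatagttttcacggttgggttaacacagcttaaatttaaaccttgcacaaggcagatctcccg

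A GATA form was found in 3 of the 8 windows, the first Hnf4a window, the first Dab2 window and the third Foxa2 window, against 26.5% of 32851 windows of the table. No SOX or forkhead form was found in the 8 windows, and these were in 9.42% and 7.29% of all windows. A match is a description of the letters and not a bound site.

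Foxa2, a forkhead factor of visceral and definitive endoderm, had intensities of 106 and 144 in Sall4a-only, 329 and 133 in Sall4b-only, 165 and 165 in depleted, and 214 and 292 in control cells. Both Sall4a-only arrays were called marginal and the other 6 present, so the fold there is a bound as to detection only. Foxa2 was at least 2.03-fold lower in Sall4a-only than in control cells (limma adjusted p = 0.566). The 95% interval of that difference, -2.04 to 0.0061 log2, included 0. Sall4b-only replicate 1 was above, and replicate 2 below, all 4 depleted and control arrays. The difference from control was -0.25 log2 in Sall4b-only (SE 0.42, adjusted p = 0.815) and -0.60 in depleted cells (adjusted p = 0.834).

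Pdgfra, the receptor for platelet-derived growth factor that marks primitive endoderm cells in the blastocyst, had 241 and 239 in Sall4a-only, 463 and 281 in Sall4b-only, 289 and 313 in depleted, and 372 and 515 in control cells. Sall4a-only arrays were the lowest of the 8 and nearly equal, and Sall4b-only replicate 1 alone among the arrays with the shRNA reached the control range. The difference from control was -0.87 log2 in Sall4a-only (SE 0.26, adjusted p = 0.448), -0.28 in Sall4b-only (adjusted p = 0.661) and -0.54 in depleted cells (adjusted p = 0.704). Another Pdgfra probe set, called present on all 8 arrays, was 0.44 log2 lower in Sall4a-only than in control cells. The remaining set was called absent on both Sall4a-only arrays and on 1 of the 2 control arrays, where it was at least 1.77-fold lower in Sall4a-only cells. Fibroblasts also express Pdgfra, and the levels of fibroblast markers are given below.

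Dab2 encodes an endocytic adaptor that the endoderm epithelium needs for uptake and polarity. Its brightest probe set had 334 and 679 in Sall4a-only, 1031 and 786 in Sall4b-only, 872 and 1071 in depleted, and 934 and 959 in control cells. The Sall4a-only arrays were the lowest of the 8 but lay 1.03 log2 apart, and the other 3 groups overlapped. The difference from control was -0.99 log2 in Sall4a-only (SE 0.34, adjusted p = 0.497), -0.073 in Sall4b-only and 0.030 in depleted cells. Without Sall4a-only replicate 1 it was -0.48 log2 in Sall4a-only cells. The next brightest Dab2 probe set had 344 and 1060 in Sall4a-only cells, against 767 and 845 in control cells, so the Sall4a-only arrays there lay on both sides of control. With the mean of the 4 kept Dab2 probe sets the difference between Sall4a-only and control cells was -0.49 in place of -0.99.

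Thbd, which encodes the surface anticoagulant thrombomodulin, and Fst, which encodes the secreted activin antagonist follistatin, had another order of groups. Thbd had intensities of 175 and 429 in Sall4a-only, 194 and 288 in Sall4b-only, 1557 and 751 in depleted, and 1810 and 1047 in control cells. The 4 add-back arrays were all below the 4 depleted and control arrays. The log2 difference from control was -2.33 in Sall4a-only (SE 0.56, adjusted p = 0.355), -2.54 in Sall4b-only (adjusted p = 0.175) and -0.35 in depleted cells (adjusted p = 0.950). Against depleted cells it was -1.98 in Sall4a-only (adjusted p = 0.475) and -2.19 in Sall4b-only cells (adjusted p = 0.402).

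Fst had 1161 and 1204 in Sall4a-only, 1323 and 1243 in Sall4b-only, 1777 and 2731 in depleted, and 1791 and 2849 in control cells. The add-back arrays were again below all others, and depleted cells differed from control by -0.036 log2. The difference from control was -0.93 log2 in Sall4a-only cells (SE 0.28, adjusted p = 0.441), and in Sall4b-only cells it was -0.82 (adjusted p = 0.276). On the dimmer Fst probe set it was -1.48 and -1.27 log2 in the same order (SE 0.18), with adjusted p = 0.194 and 0.100 over 31554 probe sets, and -0.47 in depleted cells, which were lower there without overlap.

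**Figure D2:**
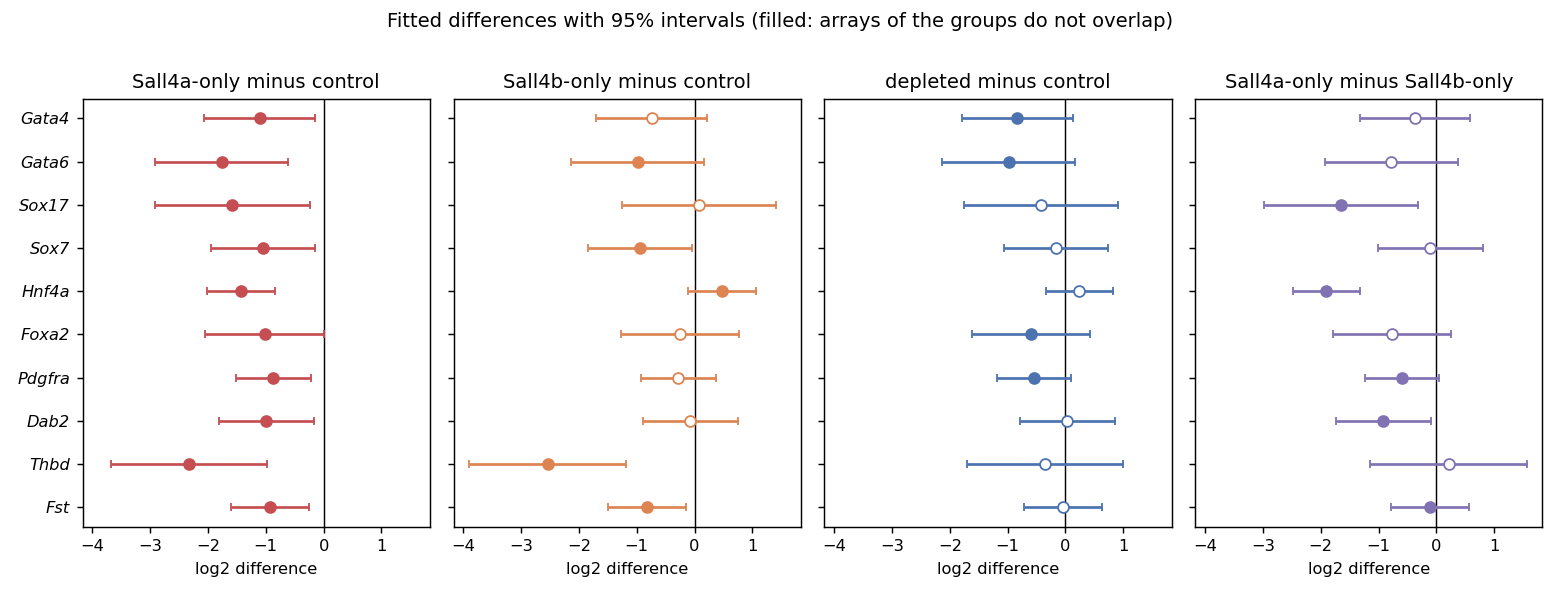
Fitted log2 difference (horizontal axis) of each of the 10 genes (vertical axis) in 4 comparisons, with 95% intervals from limma that are not adjusted for the number of genes. Filled points mark genes whose arrays did not overlap between the groups. All 10 points are filled and below 0 in Sall4a-only minus control, and Hnf4a is the lowest in Sall4a-only minus Sall4b-only at -1.91.

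The add-back groups were also compared with depleted cells, which carried the shRNA without an added cDNA. No group carried the shRNA with a cDNA other than Sall4a or Sall4b. The isoform and the presence of any added cDNA therefore cannot be told apart in a comparison with depleted cells. In Sall4a-only against depleted cells all 10 genes were lower without overlap on their brightest probe sets, where 12.3% of all genes were. The median was -0.89 log2. None of the 10 passed by limma, as did 0% of all genes, and 4 of 10 (Hnf4a, Dab2, Thbd and Fst) were lower at an unadjusted p under 0.05, against 3.38% of all genes. In Sall4b-only against depleted cells 5 genes were above 0 and 5 below, where 38.2% of all genes were below 0, and the median was 0.044 log2. Of the 10, 3 (Sox7, Thbd and Fst) were lower without overlap, where 18.9% of all genes were, and Hnf4a was higher without overlap, where 37.8% were. None of the 10 passed there either, as did 0% of all genes, and Thbd and Fst were the 2 at an unadjusted p under 0.05, where 3.76% of all genes were lower. The comparisons with depleted and with control cells share the add-back arrays.

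Sall4a-only and Sall4b-only cells were compared directly. Of the 10 genes, 9 were lower in Sall4a-only cells, where 56% of all genes were, and 5 (Sox17, Hnf4a, Pdgfra, Dab2 and Fst) were lower without overlap, where 19.4% of all genes were. The median was -0.68 log2, and none passed by limma, as did 0% of all genes. At an unadjusted p under 0.05, 3 of 10 (Sox17, Hnf4a and Dab2) were lower, against 2.77% of all genes. Without Sall4b-only replicate 1 the median was -0.14 log2. Hnf4a was at -1.82 without that array, Sox17 at -0.87, Dab2 at -0.72, Pdgfra at -0.23 and Gata4 at 0.20. For Thbd, Fst and Sox7 the intervals of the difference were -1.14 to 1.56, -0.79 to 0.56 and -1.01 to 0.80 log2, which do not show the add-back groups to be alike.

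The spread between arrays of 1 group was itself larger for these genes than for most. In Sall4b-only cells the median absolute difference between the arrays was 0.72 log2 over the 10 genes and 0.13 over all genes. Sall4b-only replicate 1 was the higher for 9 of the 10, where 51.2% of all genes were higher on that array. Sox17 differed by 1.57 log2, Foxa2 by 1.30, Gata6 by 1.21 and Gata4 by 1.13. Only 0.0642% of all genes lay further apart than Sox17 in that group, and 0.585% further apart than Gata4. Thbd went the other way, by -0.57 log2, and Hnf4a and Fst lay 0.18 and 0.090 log2 apart.

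In control cells replicate 2 was the higher for 9 of the 10, with Thbd again the exception. The median absolute difference there was 0.55 log2 over the 10 genes and 0.23 over all genes. In Sall4a-only cells these medians were 0.46 and 0.26, and in depleted cells 0.29 and 0.13. The array with the highest intensity was control replicate 2 for 5 genes and Sall4b-only replicate 1 for 3. The lowest was Sall4a-only replicate 1 for 6 genes and Sall4a-only replicate 2 for 3.

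**Figure D3:**
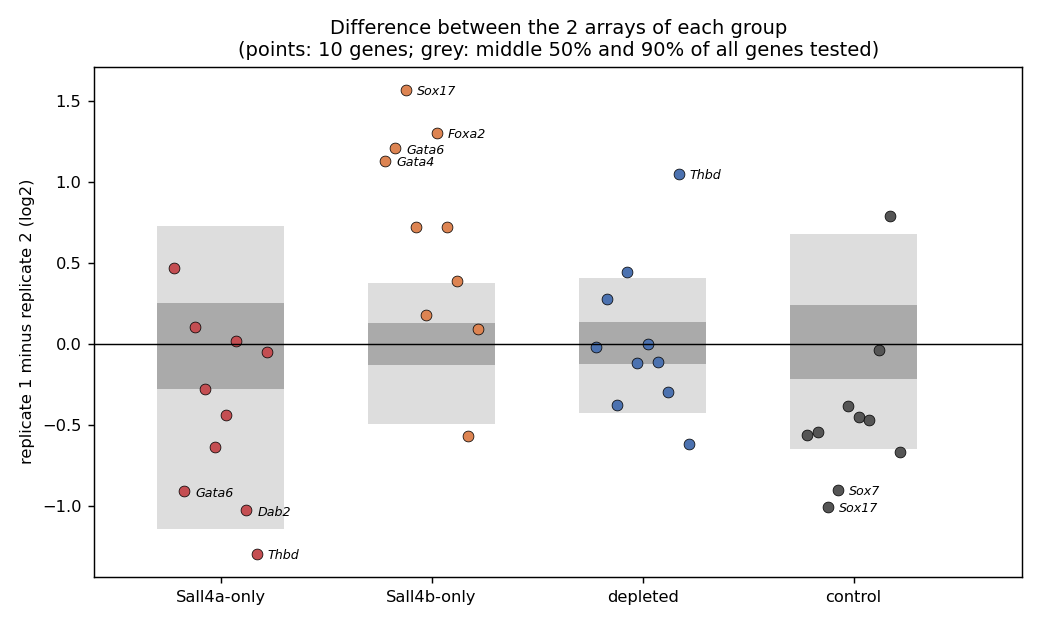
Replicate 1 minus replicate 2 in log2 units (vertical axis) in each group (horizontal axis). Points are the 10 genes, with names where the arrays lay more than 0.85 log2 apart, and grey bars hold the middle 50% and 90% of all 14027 genes. In Sall4b-only cells 7 genes, led by Sox17 at 1.57, lie above the grey bars.

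The size of the control differences depended on which control array was used. Without control replicate 2 the median over the 10 genes was -0.90 log2 in Sall4a-only, -0.26 in Sall4b-only and -0.13 in depleted cells, and without control replicate 1 it was -1.44, -0.77 and -0.69. Without Sall4a-only replicate 1 the Sall4a-only median was -1.01 against control and -0.63 against depleted cells. Without Sall4b-only replicate 2 the Sall4b-only median against control was -0.046, and without replicate 1 it was -0.88.

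The pattern of Gata6 over the 8 arrays was set beside that of all other genes by Pearson correlation, as a description over arrays that share their groups. Foxa2 ranked 9 of 14026 with r = 0.919, Pdgfra ranked 20 with r = 0.893 and Gata4 ranked 52 with r = 0.826. Hnf4a, Fst and Thbd had the lowest r with Gata6 of the 10, at 0.609, 0.622 and 0.587. The 5 genes closest to Gata6 were Slfn10-ps, Hs3st1, Hkdc1, Map3k3 and Srgn, with r of 0.983, 0.964, 0.958, 0.942 and 0.939.

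The 10 genes had 10 further kept probe sets. In Sall4a-only against control cells 7 of these were lower without overlap and 0 higher, where 16.9% and 16.1% of all 31554 kept probe sets were. The 3 that overlapped were 2 of Dab2 and 1 of Hnf4a. In Sall4b-only against control cells 5 were lower and 1 higher without overlap, where 26.4% and 26.8% of all were. In depleted against control cells 6 were lower and 3 higher without overlap, where 20.8% and 20.3% of all were. The 3 higher were 2 sets of Dab2, by 0.31 and 0.62 log2, and 1 of Hnf4a, at least 1.15-fold, although the brightest set of each gene overlapped control there. In Sall4a-only against depleted cells 7 were lower without overlap, 1 was higher and 2 overlapped. The higher was a Pdgfra set called present on all 8 arrays, by 0.23 log2, and the overlapping sets were of Gata6 and Dab2. In Sall4a-only against Sall4b-only cells 5 were lower without overlap and 5 overlapped. Shares over all kept probe sets were taken only against control, so the counts against depleted and Sall4b-only cells have no general rate beside them. On the brightest sets of all 14027 genes, 12.3% were lower without overlap in Sall4a-only than in depleted cells. Against Sall4b-only cells 19.4% were. None of the further sets passed by limma in any comparison. A further 4 probe sets, of Gata6, Sox7 and Hnf4a, were called present on no array and were not tested.

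**Figure D4:**
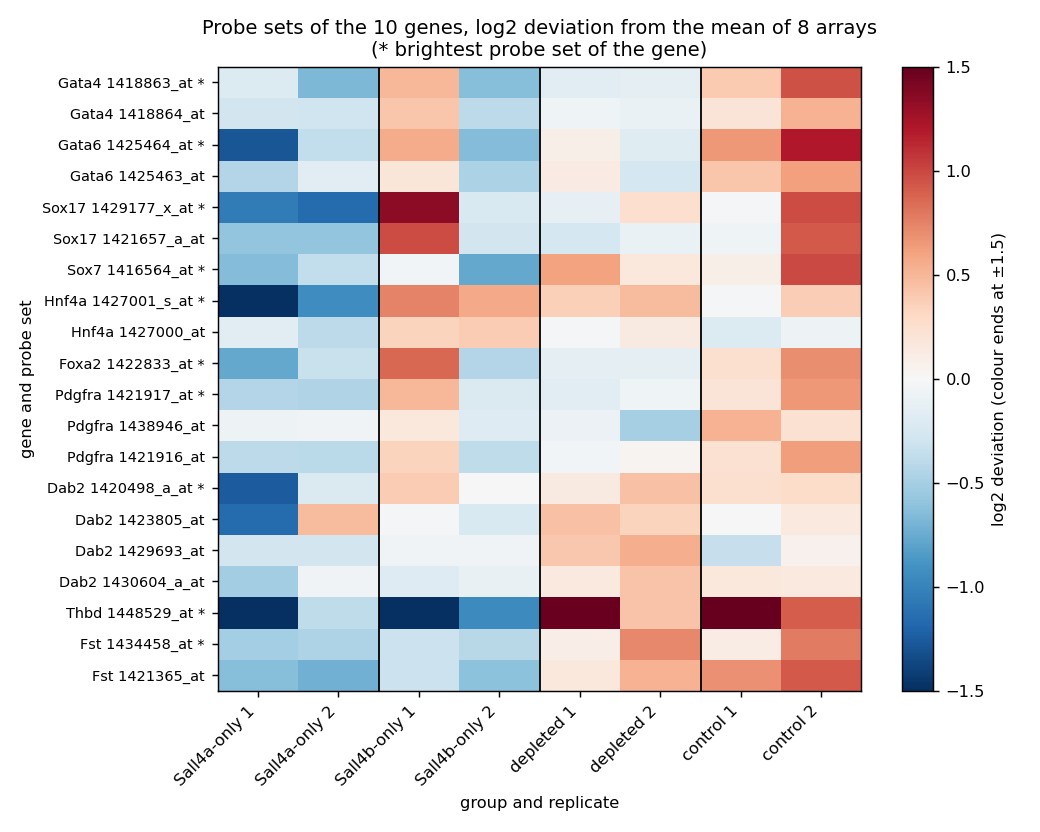
Log2 deviation from the mean of 8 arrays (colour, ending at ±1.5) for the 20 kept probe sets of the 10 genes (rows) on each array (columns); stars mark the brightest set of a gene. The Sall4a-only columns are blue for all starred sets, while the Sall4b-only columns differ from each other for the brightest Gata4, Gata6, Sox17 and Foxa2 sets.

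Further genes of the lineage were taken from lists by role. Of 6 measured regulators, none passed in any comparison with control and their median was -0.060 log2 in Sall4a-only, 0.095 in Sall4b-only and -0.22 in depleted cells. Otx2, a homeobox factor of epiblast and anterior visceral endoderm, differed by -0.74, 0.36 and 0.11 in Sall4a-only, Sall4b-only and depleted cells (SE 0.57), and the Krüppel-like factor gene Klf5 by 0.36, 0.43 and 0.38 (SE 0.29). Of 12 basement membrane genes, none passed, with medians of -0.20, 0.034 and 0.16 in the same order. The laminin gene Lama5 was higher than control without overlap in all 3, by 0.42, 0.36 and 0.72 log2 (SE 0.16), whereas Lama1, the laminin chain of the early endoderm membrane, differed by -0.61, 0.14 and -0.19 (SE 0.35).

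Of 13 measured transport and secretion genes of visceral endoderm, none passed, with medians of -0.11, 0.23 and -0.094 log2 in Sall4a-only, Sall4b-only and depleted cells. The peptidase gene Dpp4 differed from control by 0.76, 1.01 and 1.66 (SE 0.28), and the endocytic receptor gene Lrp2 by 0.59, 0.77 and 1.27 (SE 0.27), both higher without overlap in the 3 groups. Pth1r, a receptor gene expressed in parietal endoderm, differed by -1.13, -0.72 and -0.57 (SE 0.62). Rbp4, of the same list, was lower than control without overlap in the 3 groups, by -0.36, -0.56 and -0.50 (SE 0.20).

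Of 12 measured endoderm signalling genes none passed, with 9 above 0 in Sall4a-only, 10 in Sall4b-only and 8 in depleted cells. Their medians were 0.13, 0.32 and 0.064 log2 in that order, against 0.035, 0.061 and 0.0038 over all genes. The Nodal antagonist gene Lefty1 differed from control by 1.66, 1.25 and 1.19 log2 in that order (SE 0.28), and Bmp4 by 1.53, 1.48 and 0.062 (SE 0.39). FGF and ERK signalling drives primitive endoderm fate. Of its 16 measured genes 12, 13 and 14 were above 0 in Sall4a-only, Sall4b-only and depleted cells, none past the threshold. The medians were 0.21, 0.39 and 0.14 log2, beside the same medians over all genes. The receptor gene Fgfr2 differed by 0.78, 0.60 and 0.90 (SE 0.16), and the feedback inhibitor gene Spry4 by 0.20, 0.92 and 0.77 (SE 0.26). Below 0 were 4, 3 and 2 of the 16 in the same order. Dusp4 differed by -1.21, -1.40 and 0.16 (SE 0.65) and Fgf5 by -0.88, -1.51 and -0.40 (SE 0.58). Both were lower without overlap in Sall4b-only cells.

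Markers of other cell types also differed between arrays. The summed intensity of 13 fibroblast and feeder markers was 3043 and 20982 in Sall4a-only, 9115 and 12457 in Sall4b-only, 31877 and 27984 in depleted, and 23735 and 18128 in control cells, with 10 to 13 of the 13 called present on each array. It was thus below every depleted and control array on 3 of the 4 add-back arrays, the side on which Thbd, Fst and Sox7 also lay, and its part in those values was not tested. On Sall4a-only replicate 2 the sum lay between the control arrays, but its members were split. Of the 13, 4 (Col5a2, Col3a1, Lox and Thy1) were below both control arrays and 8 above both, where 29.7% and 38.8% of all genes were. On Sall4a-only replicate 2 all 10 primitive endoderm genes were below both control arrays, where 29.7% of all genes were. They were also below both depleted arrays, where 33.5% of all genes were. Whether fibroblast RNA bears on the values of these 10 genes was not tested.

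The summed intensity of 10 trophoblast markers was 24062 and 26729 in Sall4a-only, 7626 and 8498 in Sall4b-only, 15385 and 19376 in depleted, and 20409 and 27008 in control cells. Sall4b-only cells had the lowest sums, and the Sall4a-only sums lay within the control range, but their members were split. On Sall4a-only replicate 1, 5 of the 10 were below both control arrays and 2 above both, where 30.0% and 37.5% of all genes were. On replicate 2, 4 were below and 3 above, where 29.7% and 38.8% of all genes were. Against control, Plac1 differed by -1.45 log2 and Cdx2 by 1.55 in Sall4a-only cells, neither past the threshold. The ES cell marker sum was 92326 and 71511 in Sall4a-only, 93000 and 89287 in Sall4b-only, 79232 and 80034 in depleted, and 82765 and 68703 in control cells. It was lowest on control replicate 2, where 5 of the 10 genes were at their highest, but on Sall4b-only replicate 1, with 3 of the highest, it was the highest of the 8. Of 9 listed genes of definitive endoderm and primitive streak 5 were measured, with a summed intensity between 1264 and 1874 over the 8 arrays. Of 9 listed endothelial and mesoderm genes 7 were measured, at 2366 to 2578 in 3 of the add-back arrays and 2969 in the other, against 3411 and 3885 in depleted and 2715 and 3641 in control cells.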

How the data were processed

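Expression was measured on 8 arrays of CJ7 cells. The authors deposited 1 intensity per probe set and array on a linear scale, made with RMA (background correction, normalization between arrays, probe set summary), per the submitters' processing notes, which give no version number. The deposited table also holds present, marginal or absent calls, by a method not given in the sources used here. Array medians ran from 140.7 to 149.8 and present calls from 62.1% to 66.5%. The number of arrays limits the precision.

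Groups and replicate numbers came from the titles. GEO's platform annotation gave 1 gene symbol for 34945 of 45101 probe sets, several for 932 and none for 9160; 64 are array controls. Probe sets called present on at least 2 arrays were kept (31554), and for each of 14027 genes the brightest kept set, by mean log2 over the 8 arrays, was used. No pseudocount was used.

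With limma 3.58.1 in R 4.3.3, all 8 arrays entered 1 model of the 4 groups (4 residual degrees of freedom, 6.20 after moderation), giving 6 comparisons; differences are log2, and SE is their standard error. P-values were adjusted over the 14027 genes, with a threshold of 0.05, and the fit was tested on simulated data. A fold is a bound ("at least") where no array of the dimmer group was called present. It is the fitted fold, and the bound concerns detection and not the spread between arrays. The 10 genes and all lists were chosen with earlier results of these data known. All 10 genes are named in each comparison with control, with Sall4, up to 4 genes of each further list, and the 5 closest to Gata6. The list genes named were mostly among those with the smallest p, but not every such gene is named. Dusp4 and Fgf5, both below 0 in the add-back groups, were outside that order. Alternatives changed the presence filter, the probe set per gene, the log scale, the normalization, a floor, the variance prior, the arrays fitted and the replicate block, and left out each array in turn; leaving out both Sall4b-only arrays was added after seeing the data.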

Additional observations from a re-analysis of the deposited data

Results flagged for a closer look

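Hnf4a lay on opposite sides of depleted cells in the add-back groups. It was below their mean on both Sall4a-only arrays and above it on both Sall4b-only arrays. The 2 sides were unequal in size. From depleted cells, Sall4a-only cells differed by -1.67 log2 (SE 0.24, limma adjusted p = 0.210). Sall4b-only cells differed from them by 0.23 log2 (SE 0.24, limma adjusted p = 0.795). The direct comparison of Sall4a-only with Sall4b-only cells gave a log2 difference of -1.91 (SE 0.24, limma adjusted p = 0.215, 2 arrays each), which did not pass. Over the alternative settings the adjusted p of that difference ran from 0.0397, without Sall4a-only replicate 2, to 0.939.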

How the results depend on the processing

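The count of the 10 genes past the threshold stayed at 0 in every comparison under all settings other than leaving out 1 array. Without Sall4a-only replicate 2, which leaves the group as 1 array assumed to vary like the others, it was 1 for Sall4a-only against control, 2 against depleted and 1 against Sall4b-only cells (0 to 1, 0 to 2 and 0 to 1 over the arrays left out). The genes were Hnf4a (-1.75, -1.99 and -2.22 log2) and, against depleted cells, Dab2 (-1.54); with replicate 1 left out these were -1.11, -1.36, -1.59 and -0.51. The median over the 10 ran from -1.07 to -0.63 in Sall4a-only against depleted and from -1.03 to -0.14 in Sall4a-only against Sall4b-only cells as arrays were left out.

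Signs turned for differences that had not passed. In Sall4b-only against depleted cells Gata6 was 0.051 with array medians set equal, 0.0020 with the pseudocount and 0.019 after quantile normalization, and Sox17 against control was -0.0036 with the mean of probe sets. With 1 array left out, values in depleted against control cells ran from -0.12 to 0.18 for Dab2, -0.37 to 0.30 for Fst, -0.92 to 0.084 for Sox17, -0.61 to 0.29 for Sox7 and -0.87 to 0.18 for Thbd. In Sall4b-only against control they ran from -0.27 to 0.12 for Dab2, -0.905 to 0.399 for Foxa2, -0.64 to 0.082 for Pdgfra and -0.71 to 0.86 for Sox17. Against depleted cells they ran from -0.30 to 0.093 for Dab2, -0.31 to 0.997 for Foxa2, -0.47 to 0.66 for Gata4, -0.61 to 0.60 for Gata6, -0.099 to 0.62 for Pdgfra and -0.29 to 1.28 for Sox17. In Sall4a-only against Sall4b-only cells they ran from -0.93 to 0.20 for Gata4, -0.47 to 0.25 for Sox7 and -0.44 to 0.86 for Thbd. The cause was not tested.

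Counts over all genes were 1, 1, 0, 0, 0 and 0 in Sall4a-only, Sall4b-only and depleted against control, Sall4a-only and Sall4b-only against depleted, and Sall4a-only against Sall4b-only cells. They were 7, 17, 2, 8, 7 and 0 with a trended and robust prior, 2, 7, 0, 5, 1 and 0 with the pseudocount of 16, and 0, 14, 0, 0, 61 and 0 with only the groups compared. The mean of probe sets gave 2 and 6 for Sall4a-only against control and depleted. For Sall4b-only against control, 7 passed after either normalization, 5 with presence on all arrays of a group, and 121 without both Sall4a-only arrays, where 66 passed against depleted cells. Leaving out arrays gave 0 to 110, 0 to 121, 0 to 1, 0 to 287, 0 to 66 and 0 to 47.

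The replicate numbers were not used as pairs, since the labels tie them to no shared culture or day. The replicate differences of control and depleted cells correlated at 0.568 over genes and the other pairs of groups between -0.12 and 0.196. With the replicate block, 0 of the 10 genes passed in any comparison, the medians stayed at -1.08, -0.51 and -0.38 against control, and counts over all genes were 0, 2 and 0.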
